A study of Arabidopsis thaliana with 6 samples.

Results

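The Calvin cycle and photorespiration genes described here are 34 nuclear genes of Arabidopsis thaliana, taken by locus identifier from the 38150 genes listed in each library. The first 20 encode the Rubisco small subunits, Rubisco activase, enzymes of the Calvin cycle and the CP12 proteins. The other 14 encode enzymes of photorespiration and a transporter of its intermediates. RNA was sequenced in 3 libraries of a nid1 knockout mutant, set against 3 libraries of the Col-0 wild type (WT). Both genotypes were seedlings 9 days old, with the whole plant as the labelled tissue, kept at 23 °C and 60% relative humidity in 16 h light and 8 h dark. Both had grown on a medium with 20 mM nitrate, were shifted to a nitrate-deficient condition and then received 0.05 mM nitrate for 6 h, so the WT is no nitrate-replete control. The labels name neither the gene removed in nid1 nor the type of allele nor the number of mutant lines, so the knockout was not checked in the values.

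The Calvin cycle fixes CO2 in the chloroplast stroma: Rubisco joins CO2 to ribulose bisphosphate, the product is reduced to triose phosphate, and most of that triose phosphate is used to regenerate the acceptor. Rubisco also accepts oxygen, which yields phosphoglycolate, and photorespiration returns its carbon to the cycle through chloroplast, peroxisome and mitochondrion while releasing CO2 and ammonia. In a seedling both pathways run mainly in green cells, and many of their nuclear genes respond to light, sugar and nitrogen supply.

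The unit is FPKM, in which fragments are divided by the length of the transcript and by the size of the library, so levels of different genes are compared per length. The libraries' FPKM sums ranged from 740626 to 804310 in nid1 and from 730062 to 964273 in WT, and their sequencing depth is unknown. WT replicate 2 had the largest sum and stood apart on the first principal component of all tested genes, which held 38.3% of the variance. Markers of root and shoot were present in all 6 libraries, with none of the 14 root and 14 shoot markers at 0. The summed root markers lay between 3207 and 3353 FPKM in nid1 and between 3803 and 4480 FPKM in WT, mostly from PYK10, a root and hypocotyl beta-glucosidase, at 2752, 2900 and 2891 FPKM in nid1 and 3860, 3993 and 3429 FPKM in WT. The summed shoot markers lay between 82.2 and 93.0 FPKM in nid1 and between 81.2 and 82.2 FPKM in WT. None of the tested markers was called, and the median log2 change was 0.03 over 12 tested root markers and 0.07 over 14 shoot markers. Of these root markers, PYK10 and MYB36 (log2 changes −0.40 and −0.22) were lower in every nid1 library and PIN2 (0.18) was higher. Of the shoot markers, TMM (log2 change 0.33, limma unadjusted p = 0.0208) was higher in every nid1 library and 0 were lower. The shares over all tested genes were 5.5% higher and 4.79% lower. In whole seedlings, a different share of green cells and a different amount of these transcripts per cell cannot be told apart, and the part of the marker differences in the results was not tested.

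Most Calvin cycle genes had higher mean values in nid1 than in WT, but no member passed the test over all genes. The Rubisco small subunits, phosphoribulokinase, the A subunits of chloroplast glyceraldehyde-3-phosphate dehydrogenase and a chloroplast fructose bisphosphatase had the largest Calvin cycle log2 changes. Photorespiratory genes were closer to WT, with the H protein of glycine decarboxylase and AGT1 the farthest above it and catalase 2 the farthest below. Of the 34 members, 33 reached 1 FPKM in at least 3 libraries and were tested with limma on log2(FPKM + 1) among 20533 genes. At an adjusted p under 0.05, 0 of 33 members were called, against 18 of 20533 genes, which is 0.0877%. At an unadjusted p under 0.05, 15 members were higher in nid1 and 0 lower, where 3.65% of all tested genes were higher and 2.56% lower. Every nid1 library lay above every WT library for 11 members and below for 0, where the shares over all tested genes were 5.5% and 4.79%.

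The log2 change of FPKM + 1, nid1 minus WT, was above 0 for 29 tested members and below 0 for 4. Its median was 0.49, while the median over all tested genes was 0.000218 and 50.05% of those genes lay above 0. Among the 20 Calvin cycle members, 19 lay above 0, with a median of 0.62 and a range from −0.13 to 1.58. Among the 13 tested photorespiratory members, 10 lay above 0, with a median of 0.32 and a range from −0.38 to 0.90. The difference between the medians of the pathways was not tested. The members did not vary independently: nid1 replicate 1 had the lowest nid1 value for 31 of the 33, and nid1 replicate 2 the highest for 30. Without nid1 replicate 1, 26 members had every nid1 value above every WT value, where 12.9% of all tested genes did. Without WT replicate 2 the number was 19 members, where 20.2% of all tested genes did. The members higher at an unadjusted p under 0.05 numbered 23 when nid1 replicate 1 was left out, where 4.1% of all tested genes were. The number was 8 for nid1 replicate 2, 9 for nid1 replicate 3 and 9 for WT replicate 3, where the shares were 1.79%, 2.24% and 2.9%.

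**Figure D1:**
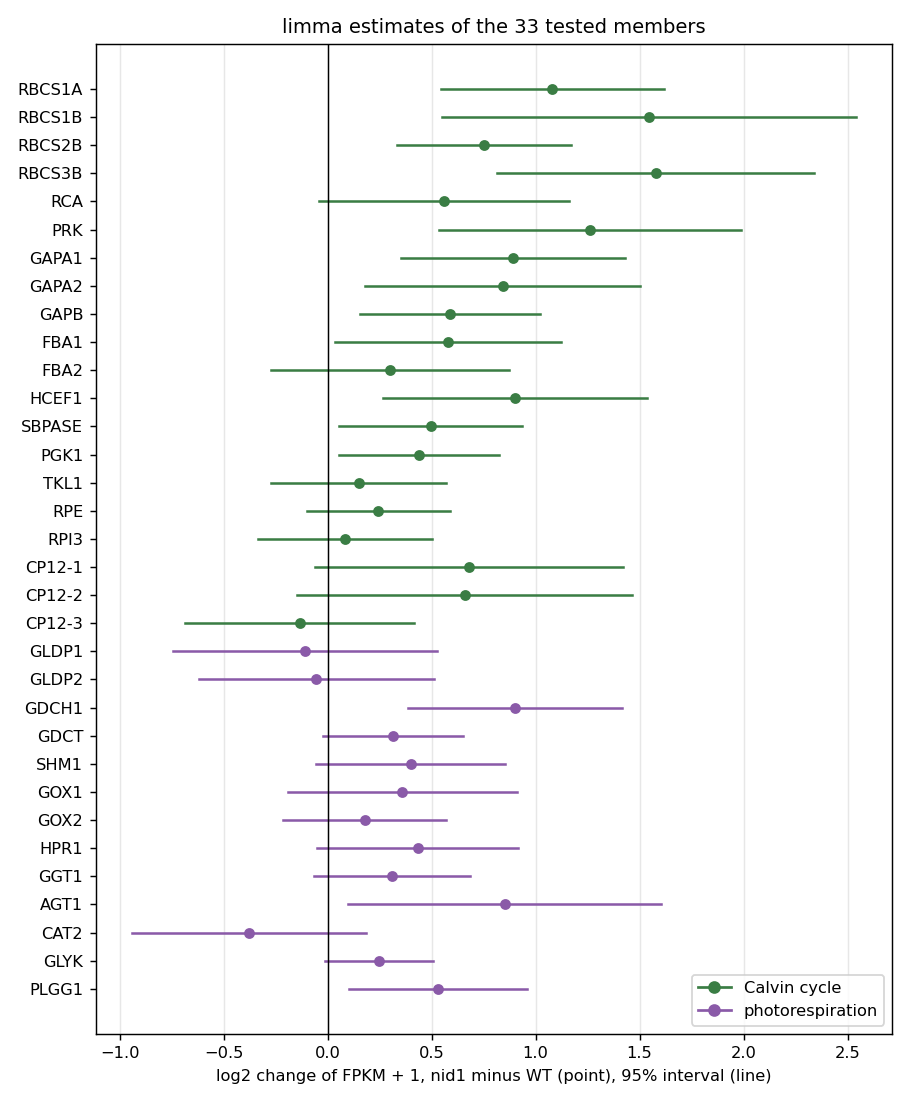
The limma log2 change of FPKM + 1 (nid1 minus WT, horizontal axis) of each of the 33 tested members, with a point for the estimate and a line for its 95% interval, Calvin cycle in green and photorespiration in purple. The estimates run from −0.38 for CAT2 to 1.58 for RBCS3B, and the intervals are not adjusted for the number of genes.

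The small subunits of Rubisco, which pair with the chloroplast-encoded large subunit to form the enzyme, come from 4 nuclear genes, and all 4 had higher values in every nid1 library than in any WT library. RBCS1A (gene-AT1G67090), on chromosome 1 from 25048158 to 25049667 (TAIR10.1, as all coordinates here), is the most abundant of them in every library. Over all 6 libraries it also had the highest mean of all members, though in WT the mean of TKL1 was higher. RBCS1A had 142, 258 and 240.3 FPKM in nid1, against 87.4, 100.2 and 105 FPKM in WT. The lowest nid1 library, replicate 1, lay above the highest WT library, and the group means of 213 ± 62.7 FPKM in nid1 and 97.4 ± 8.91 FPKM in WT (SD, n = 3 each) differed 2.19-fold. Its log2 change was 1.08 (95% interval 0.54 to 1.62) with a limma adjusted p of 0.259.

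RBCS3B (gene-AT5G38410), RBCS2B (gene-AT5G38420) and RBCS1B (gene-AT5G38430) lie side by side on the minus strand of chromosome 5, from 15376988 to 15378642, from 15380907 to 15382071 and from 15383167 to 15385320. RBCS3B had 11.4, 29.0 and 27.7 FPKM in nid1, against 6.36, 7.73 and 5.26 FPKM in WT, a log2 change of 1.58 (0.81 to 2.34) with a limma adjusted p of 0.253. RBCS1B had 5.11, 19.4 and 12.01 FPKM in nid1, against 1.82, 4.62 and 3.11 FPKM in WT, a log2 change of 1.55 (0.55 to 2.54) with a limma adjusted p of 0.424. RBCS2B had 12.5, 19.8 and 17.7 FPKM in nid1, against 10.6, 9.08 and 8.396 FPKM in WT, a log2 change of 0.75 (0.33 to 1.17) with a limma adjusted p of 0.325. For each of these genes nid1 replicate 1 was the lowest nid1 library and the groups did not overlap. RBCS3B passed the limma test without nid1 replicate 1 (log2 change 1.99, adjusted p = 0.0169), where 0.17% of all tested genes were called. Without nid1 replicate 2 or 3 its log2 change was 1.35 or 1.39, with a limma adjusted p of 0.869 or 0.794. The separate values of RBCS1B and RBCS3B are less certain than those of the others, since 7.39% and 8.86% of their 101-base words occur in another transcript, each in the other's.

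The small subunit genes together summed to 171, 326 and 298 FPKM in nid1 and to 106, 122 and 121 FPKM in WT. They made up 24.9%, 29.3% and 31.7% of the Calvin cycle members' FPKM in nid1 and 20.2%, 17.9% and 21.0% in WT, with no overlap. Within the family RBCS1A held most in both genotypes, 80.9% ± 1.99 in nid1 and 83.6% ± 2.22 in WT, with overlapping libraries. The share of RBCS3B was 6.67%, 8.90% and 9.32% in nid1 and 5.99%, 6.36% and 4.34% in WT, higher in every nid1 library.

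The upstream sequences of 4 members, picked after the values were seen, are printed. RBCS2B, HCEF1 and PRK hold a G-box in the 250 bases before the annotated gene start. GLDP1 and GGT1, with log2 changes of −0.11 and 0.31, also hold one there and are not printed. RBCS1A, the most abundant small subunit gene, holds none of the motifs searched in this window. RBCS3B and RBCS1B, the members with the largest log2 changes, hold none in theirs either. The printed sequences are from the RefSeq TAIR10.1 genome, on the strand of the gene, with G-box (CACGTG) and I-box (GATAAG, or CTTATC on the other strand) matches in capitals. RBCS2B is at chr5:15382072-15382321 on the minus strand, HCEF1 at chr3:20016587-20016836 on the plus strand, PRK at chr1:11531949-11532198 on the plus strand and RBCS1A at chr1:25049668-25049917 on the minus strand.
RBCS2B: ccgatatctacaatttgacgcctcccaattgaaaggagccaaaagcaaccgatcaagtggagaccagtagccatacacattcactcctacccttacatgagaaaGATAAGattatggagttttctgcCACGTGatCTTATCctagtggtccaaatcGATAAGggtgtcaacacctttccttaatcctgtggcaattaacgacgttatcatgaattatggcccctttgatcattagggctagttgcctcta
HCEF1: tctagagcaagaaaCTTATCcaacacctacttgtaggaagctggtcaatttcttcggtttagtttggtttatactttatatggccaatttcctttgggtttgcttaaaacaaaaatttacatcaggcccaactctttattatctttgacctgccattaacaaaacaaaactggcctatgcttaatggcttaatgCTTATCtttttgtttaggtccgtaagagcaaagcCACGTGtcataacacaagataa
PRK: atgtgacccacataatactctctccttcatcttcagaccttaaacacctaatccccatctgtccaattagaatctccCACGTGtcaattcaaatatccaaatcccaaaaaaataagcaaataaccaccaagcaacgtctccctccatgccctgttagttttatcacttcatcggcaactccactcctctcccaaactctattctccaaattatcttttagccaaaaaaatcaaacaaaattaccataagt
RBCS1A: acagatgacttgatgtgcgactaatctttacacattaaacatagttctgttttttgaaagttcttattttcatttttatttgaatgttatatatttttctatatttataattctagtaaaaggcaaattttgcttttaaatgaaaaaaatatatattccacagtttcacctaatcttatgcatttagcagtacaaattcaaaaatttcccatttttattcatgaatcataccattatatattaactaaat

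In RBCS2B the G-box begins 123 bases before the gene start, between I-boxes that begin 146, 115 and 94 bases before it. In HCEF1 the G-box begins 22 bases and the I-boxes 236 and 56 bases before the start, and in PRK the G-box begins 173 bases before it. Over both strands of 27443 windows of this length, 6.49% held the G-box and 12.3% the I-box. Among the members 5 of 34, or 14.7%, held the G-box (RBCS2B, PRK, HCEF1, GLDP1 and GGT1), and 6 of 34, or 17.6%, the I-box (RBCS2B, RCA, HCEF1, CP12-2, CP12-3 and GLDP2). The evening element AAAATATCT was in 0 of 34 members and in 2.36% of all windows. These matches describe letters in the windows only, and the annotated start lies 418 bases before the coding start in RBCS1A, against 93 bases in RBCS2B, 114 in HCEF1 and 469 in PRK. The bases between the annotated start and the coding start were not searched, so RBCS1A may hold such motifs nearer its coding start.

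Rubisco activase, encoded by RCA (gene-AT2G39730), frees Rubisco's active site of bound sugar phosphates. It had 35.4, 79.0 and 58.6 FPKM in nid1, against 35.1, 36.7 and 39.0 FPKM in WT. The WT libraries were close together, nid1 replicate 1 lay among them and the other nid1 libraries lay above. Its log2 change was 0.56 (−0.04 to 1.16) with a limma adjusted p of 0.858.

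In the reduction phase, where phosphoglycerate is phosphorylated and then reduced to triose phosphate, all 4 members had log2 changes above 0, with a median of 0.71, and 0 were called. PGK1 (gene-AT3G12780), a chloroplast phosphoglycerate kinase and the most abundant of them, had 56.3, 73.0 and 61.0 FPKM in nid1, against 41.7, 56.8 and 41.8 FPKM in WT. WT replicate 2 overlapped the nid1 range, and the log2 change was 0.44 (0.05 to 0.82) with a limma adjusted p of 0.701. GAPA1 (gene-AT3G26650), an A subunit of the chloroplast glyceraldehyde-3-phosphate dehydrogenase, had 34.98, 61.3 and 50.9 FPKM in nid1, against 22.6, 32.8 and 21.9 FPKM in WT. Its groups did not overlap, and its log2 change was 0.89 (0.35 to 1.43) with a limma adjusted p of 0.382. GAPB (gene-AT1G42970), the B subunit, had 16.9, 28.4 and 23.4 FPKM in nid1, against 13.5, 16.2 and 14.1 FPKM in WT, again without overlap. GAPA2 (gene-AT1G12900), the second A subunit gene, had 7.92, 17.8 and 14.7 FPKM in nid1, against 5.71, 8.92 and 5.86 FPKM in WT, with nid1 replicate 1 under WT replicate 2. GAPA1's share of the summed A and B subunit FPKM was 58.5%, 57.1% and 57.2% in nid1 and 54.1%, 56.6% and 52.3% in WT.

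**Figure D2:**
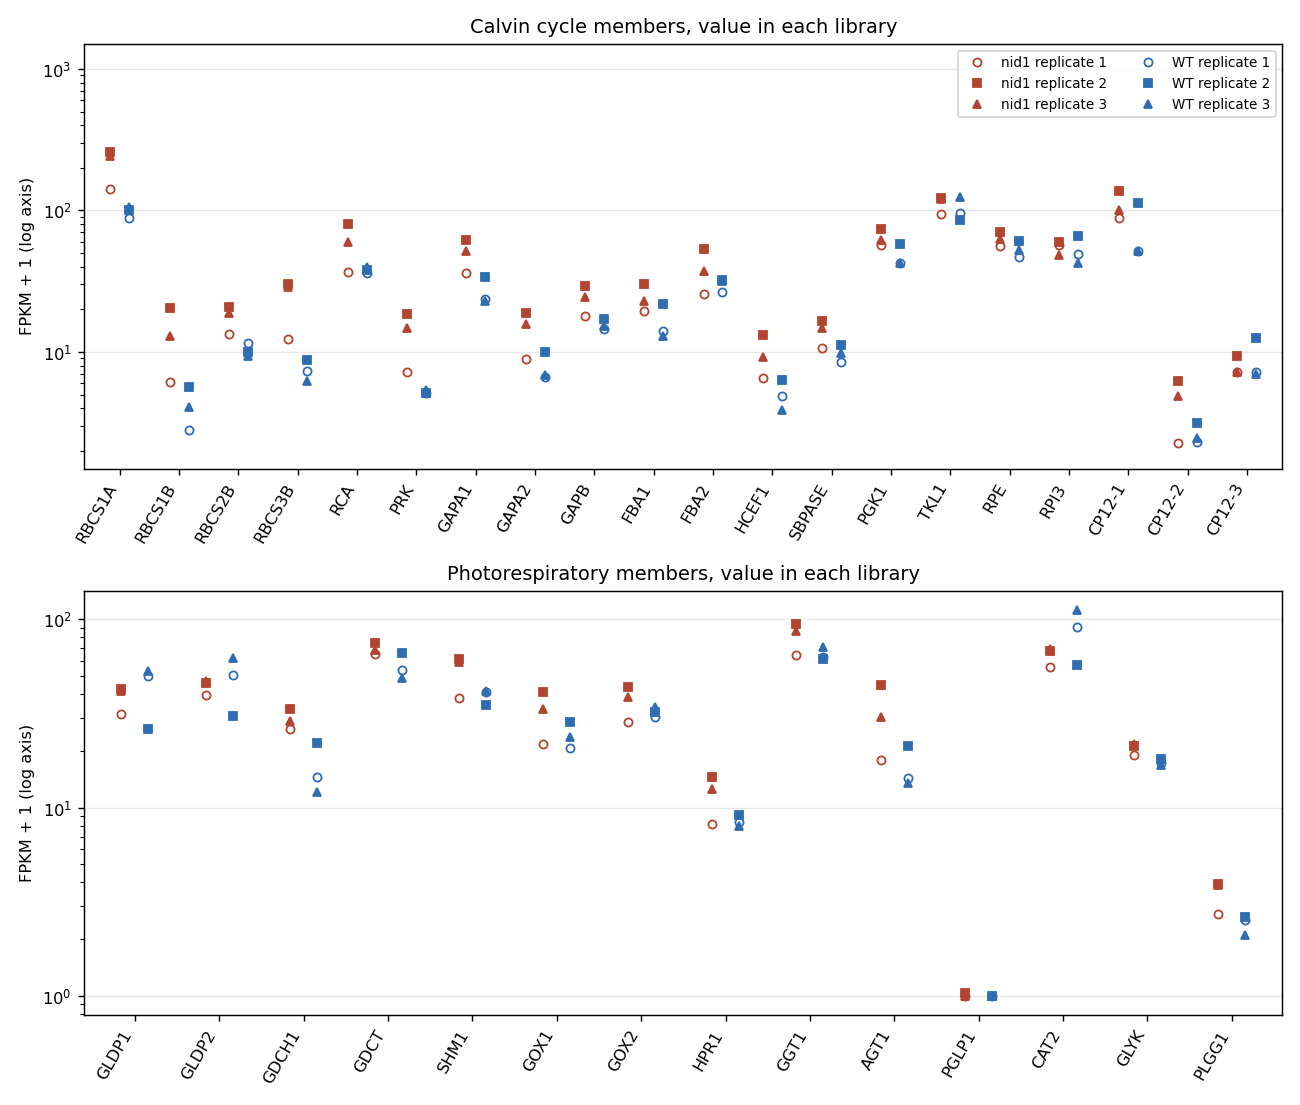
FPKM + 1 on a log axis for each member in each library, nid1 in red at the left of each gene and WT in blue at the right, with open circles, squares and triangles for replicates 1, 2 and 3. The 4 small subunit genes, PRK and HCEF1 have every nid1 library above every WT library, and nid1 replicate 1 is the lowest nid1 library for 31 of the 33 tested members.

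The regeneration phase rebuilds ribulose bisphosphate from triose phosphate, and its 8 members had log2 changes from 0.08 to 1.26 with a median of 0.40 and 0 called. The farthest from 0 was PRK (gene-AT1G32060), phosphoribulokinase, which makes the CO2 acceptor. PRK had 6.17, 17.5 and 13.7 FPKM in nid1, against 4.13, 4.16 and 4.37 FPKM in WT. The WT libraries differed little (4.22 ± 0.132 FPKM) and the nid1 libraries widely (12.5 ± 5.79 FPKM, SD, n = 3 each), all above WT, for a ratio of means of 2.95. The log2 change was 1.26 (0.53 to 1.99) with a limma adjusted p of 0.347. Without nid1 replicate 1, the lowest nid1 library, it was 1.66 with a limma adjusted p of 0.0204. Without nid1 replicate 2 or 3 it was 0.98 or 1.14, with a limma adjusted p of 0.9999 or 0.974.

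HCEF1 (gene-AT3G54050), a chloroplast fructose bisphosphatase, had 5.57, 12.2 and 8.26 FPKM in nid1, against 3.93, 5.36 and 2.92 FPKM in WT. Its groups did not overlap, though nid1 replicate 1 was close to WT replicate 2, and its log2 change was 0.90 (0.27 to 1.54) with a limma adjusted p of 0.498. SBPASE (gene-AT3G55800), sedoheptulose bisphosphatase, a light-activated enzyme of the cycle with no counterpart in glycolysis, had 9.70, 15.6 and 13.8 FPKM in nid1, against 7.48, 10.2 and 8.81 FPKM in WT. Its nid1 replicate 1 lay under WT replicate 2, and its log2 change was 0.49 (0.06 to 0.93) with a limma adjusted p of 0.715. Of HCEF1's exonic bases, 9.44% overlap a neighbouring gene on the other strand.

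The plastid aldolases FBA1 (gene-AT2G21330) and FBA2 (gene-AT4G38970), which join triose phosphates, had log2 changes of 0.58 and 0.30 with overlapping groups. Transketolase, encoded by TKL1 (gene-AT3G60750), moves carbon pairs between sugar phosphates and was the most abundant regeneration member. It had 93.0, 122 and 120.0 FPKM in nid1, against 95.04, 85.1 and 123 FPKM in WT. Its groups overlapped over most of their range, and its log2 change was 0.15 (−0.27 to 0.57) with a limma adjusted p of 1. RPE (gene-AT5G61410), ribulose phosphate epimerase, had a log2 change of 0.24 (−0.10 to 0.59). RPI3 (gene-AT3G04790), a ribose phosphate isomerase, had 56.1, 58.5 and 47.5 FPKM in nid1, against 48.6, 64.9 and 41.4 FPKM in WT, a log2 change of 0.08 (−0.33 to 0.50) that turned to −0.061 without WT replicate 3. In RPI3, 23.7% of exonic bases overlap a gene on the other strand, so its value is uncertain.

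CP12 proteins tie phosphoribulokinase and glyceraldehyde-3-phosphate dehydrogenase into an inactive complex in the dark. CP12-1 (gene-AT2G47400), the most abundant CP12 gene, had 88.0, 137 and 100.1 FPKM in nid1, against 50.6, 112 and 50.8 FPKM in WT. WT replicate 2 lay inside the nid1 range while the other WT libraries lay below it, and the log2 change was 0.68 (−0.06 to 1.42) with a limma adjusted p of 0.866. CP12-2 (gene-AT3G62410) had 1.29, 5.26 and 3.92 FPKM in nid1, against 1.31, 2.16 and 1.45 FPKM in WT, a log2 change of 0.66 (−0.15 to 1.46). CP12-3 (gene-AT1G76560) had 6.20, 8.31 and 6.19 FPKM in nid1, against 6.23, 11.5 and 6.04 FPKM in WT, a log2 change of −0.13 (−0.68 to 0.42) that was 0.14 without WT replicate 2. As a share of the CP12 FPKM, CP12-3 held 6.49%, 5.52% and 5.62% in nid1 and 10.7%, 9.14% and 10.4% in WT, lower in every nid1 library. CP12-1 held 91.3% ± 0.728 in nid1 and 87.8% ± 1.19 in WT (SD, n = 3 each), higher in every nid1 library. Together these genes held nearly all of the sum, so a lower share of one is largely a higher share of the other. The FPKM of each overlapped between the genotypes.

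Photorespiration begins in the chloroplast, where phosphoglycolate phosphatase, encoded by PGLP1 (gene-AT5G36700), makes glycolate. PGLP1 was listed at 0, 0.0316 and 0 FPKM in nid1 and at 0 in all WT libraries, and was not tested. Of its 101-base words, 87.2% occur in PGLP1B, a near-identical gene on the same chromosome. PGLP1B was listed at 0.0289, 0.0525 and 0.0488 FPKM in nid1 and 0, 0.0494 and 0 FPKM in WT. A value of 0 in such a pair can be a failed estimate, so no level of this enzyme's transcript is given. PLGG1 (gene-AT1G32080), the carrier that exchanges glycolate and glycerate across the chloroplast envelope, had 1.71, 2.93 and 2.89 FPKM in nid1, against 1.52, 1.62 and 1.09 FPKM in WT. The groups did not overlap, and its log2 change was 0.53 (0.10 to 0.96) with a limma adjusted p of 0.644. GLYK (gene-AT1G80380), glycerate kinase, which closes the pathway in the chloroplast, had 18.0, 20.3 and 20.8 FPKM in nid1, against 16.3, 17.0 and 15.9 FPKM in WT, a log2 change of 0.25 (−0.01 to 0.51) with a limma adjusted p of 0.836 and no overlap.

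The 6 peroxisomal members had a median log2 change of 0.33 with 0 called, and the groups overlapped for all 6. AGT1 (gene-AT2G13360), the serine:glyoxylate aminotransferase, had 17.0, 43.5 and 29.2 FPKM in nid1, against 13.3, 20.3 and 12.5 FPKM in WT. Its nid1 replicate 1 lay under WT replicate 2, and its log2 change was 0.85 (interval 0.10 to 1.60) with a limma adjusted p of 0.714. The glycolate oxidases GOX1 (gene-AT3G14420) and GOX2 (gene-AT3G14415), neighbours on chromosome 3 from 4821391 to 4824178 and from 4818251 to 4821013, had log2 changes of 0.36 and 0.18. GOX1 held 45.8% ± 2.78 of their summed FPKM in nid1 and 42.7% ± 3.69 in WT (SD, n = 3 each), with overlap. GGT1 (gene-AT1G23310), the glutamate:glyoxylate aminotransferase, and HPR1 (gene-AT1G68010), hydroxypyruvate reductase, had log2 changes of 0.31 and 0.43, with intervals from −0.07 to 0.69 and from −0.05 to 0.92.

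CAT2 (gene-AT4G35090), the leaf catalase that removes the hydrogen peroxide made by glycolate oxidase, was the peroxisomal member farthest below WT. Its mean over all 6 libraries was the highest of the peroxisomal members, though in nid1 GGT1 lay above it in every library. CAT2 had 54.7, 66.7 and 68.7 FPKM in nid1, against 89.4, 55.8 and 111 FPKM in WT. WT replicate 2 lay at the low end of the nid1 range while the other WT libraries lay above all nid1 libraries. The log2 change was −0.38 (−0.94 to 0.19) with a limma adjusted p of 1.

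In the mitochondrion, glycine decarboxylase and serine hydroxymethyltransferase convert glycine to serine and release CO2 and ammonia. The 5 members of this step had log2 changes from −0.11 to 0.90 with a median of 0.32, and 0 were called. GDCH1 (gene-AT2G35370), an H protein that carries the aminomethyl group between the other subunits, had 25.1, 32.6 and 27.9 FPKM in nid1, against 13.5, 21.1 and 11.1 FPKM in WT. Its groups did not overlap, its means of 28.5 ± 3.75 FPKM in nid1 and 15.3 ± 5.23 FPKM in WT (SD, n = 3 each) differed 1.87-fold, and its log2 change was 0.90 (0.39 to 1.42) with a limma adjusted p of 0.337. GDCT (gene-AT1G11860), the T protein and the member of this step with the highest mean in both genotypes, had 64.2, 73.8 and 67.4 FPKM in nid1, against 53.0, 65.1 and 47.5 FPKM in WT. Its WT replicate 2 lay just above nid1 replicate 1, and its log2 change was 0.32 (−0.02 to 0.65) with a limma adjusted p of 0.855.

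The P proteins, which carry out the decarboxylation, did not show higher means. GLDP1 (gene-AT4G33010) had 30.3, 41.4 and 40.6 FPKM in nid1, against 48.7, 25.2 and 52.3 FPKM in WT, and GLDP2 (gene-AT2G26080) had 38.4, 45.1 and 46.2 FPKM in nid1, against 49.3, 29.7 and 61.0 FPKM in WT. In both genes WT replicate 2 was below every nid1 library and the other WT libraries above every nid1 library. Their log2 changes were −0.11 (−0.74 to 0.53) and −0.05 (−0.62 to 0.51), each with a limma adjusted p of 1, and both signs turned when nid1 replicate 1, WT replicate 1 or WT replicate 3 was left out. SHM1 (gene-AT4G37930), the mitochondrial serine hydroxymethyltransferase, had 37.1, 60.2 and 58.1 FPKM in nid1, against 40.3, 33.9 and 40.8 FPKM in WT, with nid1 replicate 1 inside the WT range. Its log2 change was 0.40 (−0.06 to 0.85) with a limma adjusted p of 0.888.

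**Figure D3:**
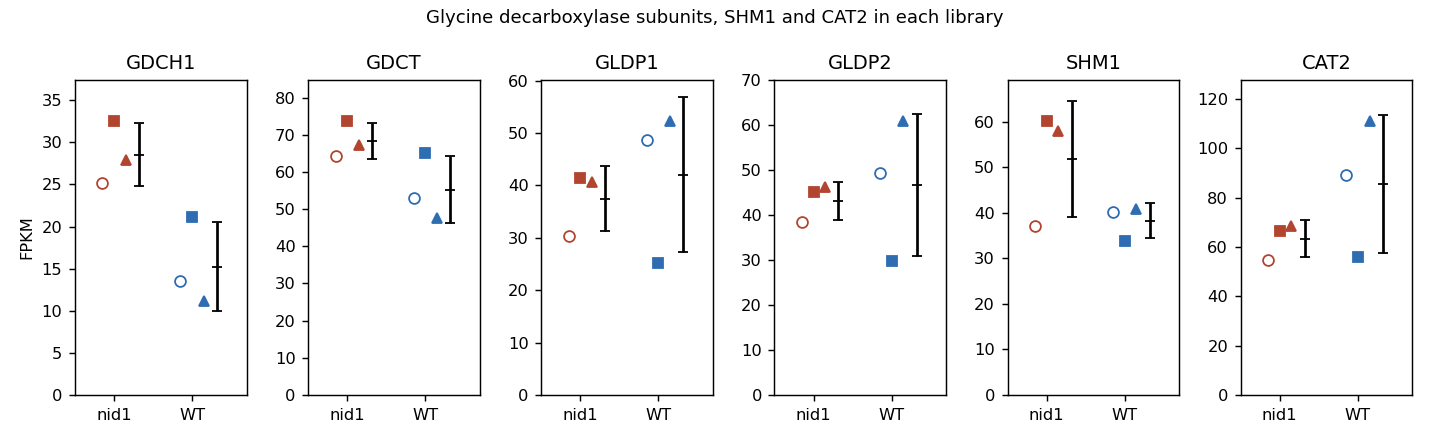
FPKM of the glycine decarboxylase members, SHM1 and CAT2 in each library, nid1 at the left and WT at the right of each panel, with open circles, squares and triangles for replicates 1, 2 and 3 and bars for the mean and SD (n = 3 each). GDCH1 does not overlap between genotypes, while WT replicate 2 is the lowest of the 6 libraries in GLDP1 and GLDP2.

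Taken as a level per library, the mean of log2(FPKM + 1) over the 20 Calvin cycle members was 4.37, 5.19 and 4.89 in nid1 and 3.997, 4.39 and 4.04 in WT. The means over libraries were 4.82 ± 0.418 in nid1 and 4.14 ± 0.212 in WT (SD, n = 3 each), and nid1 replicate 1 lay just under WT replicate 2. The same level over the 13 tested photorespiratory members was 4.63, 5.18 and 5.05 in nid1 and 4.65, 4.62 and 4.68 in WT. Here nid1 replicate 1 lay inside the narrow WT range and the other nid1 libraries above it. The difference in level, nid1 minus WT, was 0.67 for the Calvin cycle and 0.31 for photorespiration, and moved between 0.49 and 0.90 and between 0.19 and 0.47 as single libraries were left out.

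The summed FPKM of the Calvin cycle members over that of the photorespiratory members was 1.69, 1.93 and 1.78 in nid1 and 1.19, 1.72 and 1.19 in WT. WT replicate 2 lay inside the nid1 range and the other WT libraries well below it. In that library 15 of 20 Calvin cycle members had their highest WT value, and 7 of 13 photorespiratory members their highest and 5 their lowest WT value. All members together held 0.137%, 0.210% and 0.198% of the library's FPKM sum in nid1 and 0.133%, 0.112% and 0.140% in WT, with nid1 replicate 1 inside the WT range.

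**Figure D4:**
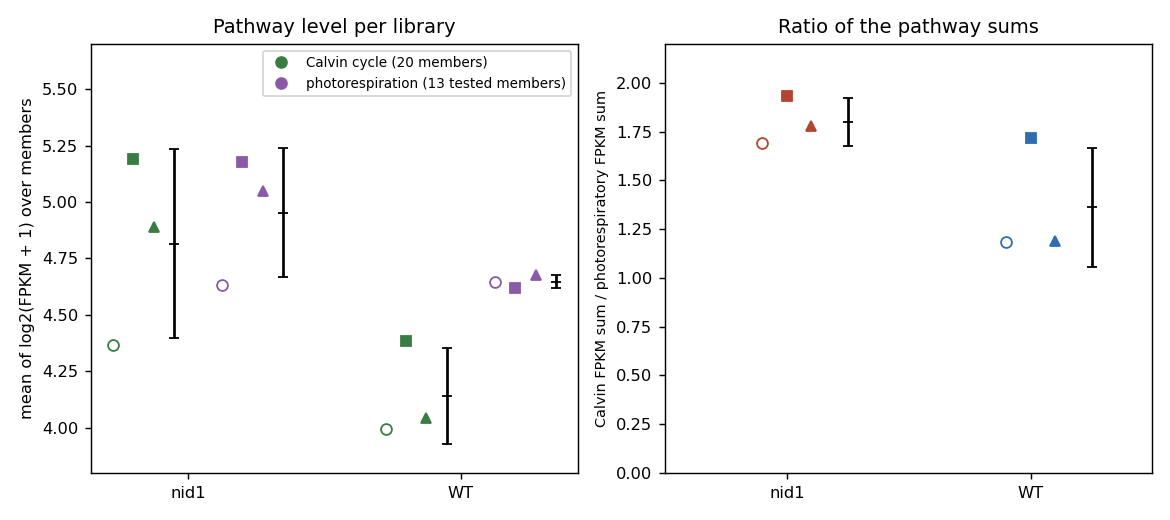
Left, the mean of log2(FPKM + 1) over the 20 Calvin cycle members (green) and the 13 tested photorespiratory members (purple) in each library; right, the ratio of the summed FPKM of the pathways. Open circles, squares and triangles are replicates 1, 2 and 3 and bars the mean and SD (n = 3 each); the ratio of 1.72 in WT replicate 2 lies inside the nid1 range of 1.69 to 1.93.

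Several members have relatives that encode the same kind of enzyme, and 11 such enzymes, chosen after the values were seen, were compared. The ratio of summed mean FPKM, nid1 over WT, was larger for the member than for its summed relatives in 10 of the 11. The log2 change was above 0 for 29 of the 33 tested members, so this count is not independent of that. For glyceraldehyde-3-phosphate dehydrogenase the ratio was 1.81 for GAPA1, GAPA2 and GAPB and 0.830 for the glycolytic GAPC1 and GAPC2. Of the FPKM summed over GAPA1, GAPA2, GAPB, GAPC1 and GAPC2, the GAPA and GAPB genes held 3.09%, 5.81% and 4.88% in nid1. In WT they held 2.33%, 2.14% and 2.00%, so the share was higher in every nid1 library. Other dehydrogenase genes, such as GAPN, were not in this sum. The relatives were summed, so the abundant ones weigh most. Some relatives are chloroplast genes too, such as the plastid aldolase FBA3 and CFBP2, a second chloroplast fructose bisphosphatase. For fructose bisphosphatase the ratio was 2.13 for HCEF1 and 1.21 for its summed relatives, of which CFBP2 alone had 1.60 and CYFBP 1.16. For the H protein of glycine decarboxylase it was 1.87 for GDCH1 and 0.972 for its summed relatives, of which the abundant GDCH2 alone had 0.948 and GDCH3 had 1.35.

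The member's share of the FPKM summed over it and the relatives compared was higher in every nid1 library in 6 of the 11 enzymes and lower in 1, catalase. Such shares were not computed for other gene families, so these counts have no background to be read against. CAT2 had a ratio of 0.741 and its summed relatives a ratio of 1.65, of which CAT3 alone had 1.699 and CAT1, below 1 like CAT2, had 0.808. CAT3, the most abundant catalase gene here, had 1053, 1317 and 1359 FPKM in nid1, against 723, 749 and 724 FPKM in WT. Its groups did not overlap, and its log2 change was 0.75 (0.33 to 1.18) with a limma adjusted p of 0.332. CAT2 held 4.81%, 4.71% and 4.70% of the catalase FPKM in nid1 and 10.6%, 6.65% and 12.5% in WT.

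**Figure D5:**
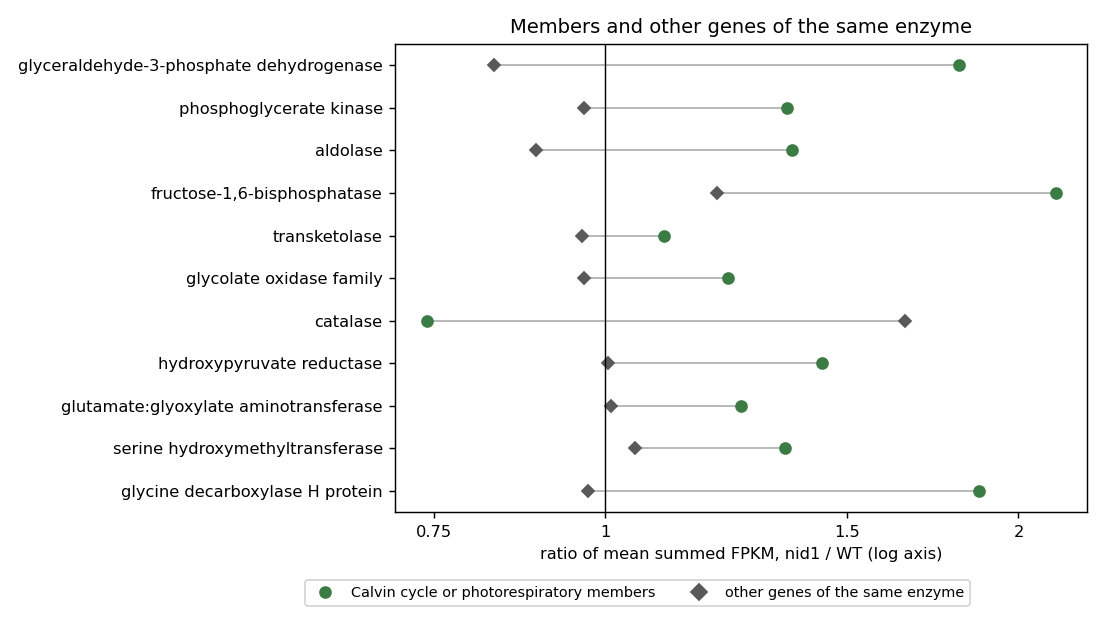
Ratio of mean summed FPKM, nid1 over WT, on a log axis, for the member or members (green circles) and the summed other genes of the same enzyme (grey diamonds) in 11 enzymes; the vertical line marks a ratio of 1. The members lie to the right of their relatives in 10 enzymes, and catalase, with 0.741 for CAT2 and 1.65 for the sum of CAT1 and CAT3, which is mostly CAT3, is the exception.

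The other genes of these pathways were counted from lists of their own, and none was called. Of 8 other Calvin cycle genes tested, the median log2 change was 0.25, and the 3 with an unadjusted p under 0.05 were all higher in nid1. Of all tested genes, 3.65% were higher at that threshold and 2.56% lower. TPT, the triose phosphate exporter of the chloroplast, was the farthest from 0, with 30.5, 49.2 and 36.7 FPKM in nid1, against 21.0, 27.4 and 18.2 FPKM in WT. Its groups did not overlap, and its log2 change was 0.77 (0.29 to 1.26) with a limma adjusted p of 0.404. The Rubisco large subunit gene of the chloroplast, RBCL, was not tested at 7.41, 0.852 and 0.604 FPKM in nid1 and 0.156, 0.214 and 0.964 FPKM in WT. The libraries were made with an mRNA kit, and chloroplast transcripts are mostly without long poly(A) tails, so these values are no measure of its level.

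Of 9 Rubisco assembly factors, the median log2 change was 0.25, and RBCX1, a chaperone of the large subunit, had the largest change. It had 3.12, 9.09 and 7.51 FPKM in nid1, against 1.39, 1.75 and 1.197 FPKM in WT, without overlap, a log2 change of 1.54 (0.82 to 2.26) with a limma adjusted p of 0.242. Without nid1 replicate 1, its lowest nid1 library, it passed the limma test (log2 change 1.93, adjusted p = 0.0169). In that setting 0.17% of all tested genes were called. Without nid1 replicate 2 or 3 the log2 change of RBCX1 was 1.28 or 1.405, with a limma adjusted p of 0.789 or 0.7905. Without WT replicate 1, 2 or 3 its limma adjusted p was 0.384, 0.148 or 0.623. Of 10 thioredoxin system genes, which activate several Calvin cycle enzymes in light, the median was 0.20. TRXF2 and TRXM1, with log2 changes of 0.65 and 0.44, were the ones with an unadjusted p under 0.05, where 3.65% of all tested genes were higher and 2.56% lower. Of 21 other photorespiration genes tested, 11 lay above 0 and 10 below, with a median of 0.01. After CAT3 the smallest p-values were those of PMDH2, a peroxisomal malate dehydrogenase, and GLU1, the ferredoxin-dependent glutamate synthase that reassimilates ammonia, with log2 changes of 0.80 and 0.68. Of 10 cytosolic glycolysis genes tested, 7 lay below 0 and the median was −0.12, while GAPN, the non-phosphorylating dehydrogenase, had a log2 change of 0.75 (0.26 to 1.24) with a limma adjusted p of 0.447.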

How the data were processed

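Total RNA of 3 nid1 and 3 WT seedling samples was extracted with Trizol and read as stranded mRNA libraries of 101-base pairs, per the labels' protocols. The deposited values are FPKM with 1 value per gene and library, a unit read from the file headers, the submitters' processing notes and the values. These notes name bcl2fastq 2.20, Bowtie, TopHat2 2.0.13 and Cuffdiff 2.2.1, without roles. The series' design text names a different sequencer, a BWA and ANOVA route and isoforms, whereas the deposited rows are genes. Not given in the sources used here are the strand setting, the scaling between libraries and the genome build. Values of overlapping or near-identical genes are estimates and uncertain. Of 38150 identifiers, 37932 matched RefSeq locus tags of TAIR10.1 and the other 218 equal positions of its annotated features, so coordinates (1-based) and sequences are from RefSeq TAIR10.1. Low values lay within 0.1 of a whole number of steps in 24.0% to 31.3% of cases, so fragment counts were not recovered, depth is unknown and no counting interval is given.

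Genes with at least 1 FPKM in at least 3 libraries (20533) were log2-transformed after adding 1 FPKM, which understates the change of low genes. They were fitted by limma 3.58.1 (R 4.3.3) with genotype as the only term and a mean-variance trend. Two-sided p-values had a Benjamini-Hochberg adjustment over all of these genes, with the threshold for a call at 0.05. Intervals are limma's 95% intervals for single genes. The fit was tested on simulated data. The members and the gene lists were chosen with earlier results of these data known, so no test over a list is given. Values in every library are given for the 4 small subunit genes and, in each role group, for the member with the highest mean over all 6 libraries and those with the largest and smallest log2 change. From each other list come genes with the smallest p-values, up to 4. Further genes, the enzyme comparison and the motif windows were chosen after values were seen. No source says that the replicates were grown apart, so the p-values reflect only the spread of these samples, which may be technical. Alternatives tried were the omission of each library, a replicate block, other pseudocounts, no filter, rescaling, quantile normalization and no trend.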

Additional observations from a re-analysis of the deposited data

How the results depend on the processing

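The log2 changes of 29 of the 33 tested members kept their sign in all 13 alternatives. Those that turned did so only as single libraries were left out, where RPI3 ranged from −0.061 to 0.26, CP12-3 from −0.28 to 0.14, GLDP1 from −0.43 to 0.079 and GLDP2 from −0.34 to 0.16. When each library was left out in turn, the genes called over all 20533 ranged from 8 to 35 and the members called from 0 to 2. Of the counts added after the values were seen, members with every nid1 library above every WT library ranged from 11 to 26. That count cannot fall under the 11 of all libraries, since leaving out a library creates no overlap. Members higher at an unadjusted p under 0.05 ranged from 8 to 23. The cause of these moves was not tested. With the replicate number as a block, limma called 70 genes and 1 member, RBCS1B (adjusted p = 0.0326), but nothing in the labels says that shared numbers pair the samples. The deviations of same-numbered samples correlated at −0.01, 0.13 and 0.30, and not every sample correlated best with its own number. The other alternatives (pseudocounts of 0.1 and 0.5, no filter, rescaling, quantile normalization, no trend) called 0 members and between 18 and 19 genes. The median log2 change ranged from 0.42 to 0.84 for the Calvin cycle and from 0.23 to 0.47 for photorespiration as single libraries were left out. With 3 libraries of unknown depth in each genotype, a p above the threshold does not show that a member was equal in nid1 and WT.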
